A study of Homo sapiens with 10 samples.

Results

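Cytosolic ribosomal proteins are the protein part of the ribosome outside mitochondria. They were taken here as every gene whose symbol begins with RPS or RPL and then a number, or is a stalk or RPSA symbol, with the RPS6K kinases left out. That rule gave 59 of the 17687 genes measured, and it used names and no measured value. Of the 59, 45 were the usual ribosomal proteins, 19 of the small subunit and 26 of the large one, and these are called the core set below. Another 8 were L forms, which are separate genes that closely resemble a core gene: RPL3L, RPL7L1, RPL10L, RPL22L1, RPL26L1, RPL36AL, RPL39L and RPS27L. The rest were 3 read-through genes, 2 copies on the Y chromosome and RPS19BP1, which encodes a protein that binds RPS19 and is not itself a ribosomal protein. Whether the probe sets of the read-through genes read the joined transcript or that of the ordinary ribosomal protein gene was not tested. The Y copies were counted but their values are not given, so 57 members have values below. RPL3, RPL5, RPL7A, RPL10, RPL23, RPL39, RPLP0, RPLP2, RPSA and RPS27A were not analysed here.

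Expression arrays were run on 4 human myeloid cell lines, HL60, MDSL, SKM1 and K562, with 1 array for each condition and 10 arrays in all. HL60 derives from acute myeloid leukaemia, K562 from chronic myeloid leukaemia, MDSL from myelodysplastic disease and SKM1 likewise. OR21 (OR-2100) is a hypomethylating agent, and each line was compared with its own untreated control after 96 h. HL60 and K562 received 500 nM, while the dose for MDSL and SKM1 was 100 nM. The last 2 arrays held HL60 derivatives labelled AZA resistant and OR21 resistant, both labelled as controls and so untreated, set against the parental HL60 control. Dose, disease and cell line cannot be told apart in this design, and the only replicates are the 4 lines.

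A ribosome has a small subunit that reads the message and a large one that joins amino acids, and each holds one copy of nearly all of its proteins. Ribosomal protein messages are among the most abundant of a dividing cell. Most begin with a run of pyrimidines, the 5′ terminal oligopyrimidine (TOP) tract, through which mTOR signalling and the binding protein LARP1 control their translation. In blood cells, loss of 1 copy of single ribosomal protein genes underlies Diamond-Blackfan anaemia, and loss of RPS14 with the long arm of chromosome 5 marks a form of myelodysplasia.

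The starts of members that the results turn on are shown from RefSeq, assembly GRCh38.p14, as 30 bases of the sense strand centred on the annotated start. Capitals mark the longest unbroken run of C and T that touches the 10 bases on either side of the start.
RPS14, chr5:150449725-150449754, minus strand: ccgccccctcccaCTCTCTCTTTCCggtgt
RPS27, chr1:153990747-153990776, plus strand: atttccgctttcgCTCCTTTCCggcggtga
RPS21, chr20:62387088-62387117, plus strand: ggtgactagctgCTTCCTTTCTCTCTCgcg
RPL29, chr3:51995881-51995910, minus strand: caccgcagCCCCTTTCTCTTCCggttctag
RPL22, chr1:6199581-6199610, minus strand: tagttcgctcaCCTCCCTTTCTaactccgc
RPL22L1, chr3:170870181-170870210, minus strand: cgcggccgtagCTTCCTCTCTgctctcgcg
RPL26, chr17:8383179-8383208, minus strand: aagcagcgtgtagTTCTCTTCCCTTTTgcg
RPL26L1, first start, chr5:172958714-172958743, plus strand: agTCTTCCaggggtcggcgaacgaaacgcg
RPL26L1, second start, chr5:172958865-172958894, plus strand: ggcggggcggcggccacaaaCCCgcaggca
RPL7L1, chr6:42879601-42879630, plus strand: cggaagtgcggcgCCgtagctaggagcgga
RPL36A, chrX:101390996-101391025, plus strand: tttgcctcgcggTTTCTTTCTTTCCgcgcc
RPL36AL, chr14:49620612-49620641, minus strand: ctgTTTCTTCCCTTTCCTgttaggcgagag
RPS27L, chr15:63157463-63157492, minus strand: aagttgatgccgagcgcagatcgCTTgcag
RPL10L, chr14:46651767-46651796, minus strand: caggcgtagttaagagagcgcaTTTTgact

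The core set shared long pyrimidine runs at the start, which the naming rule did not use. A run of at least 8 C or T bases was present at 38 of 46 core starts, or 82.6%, against 15.3% of the 20090 starts of all genes with a RefSeq window. Counted by gene, 36 of 41 core genes with a window had one. The same search on the opposite strand, which finds runs of A or G on the sense strand, gave 2.17% of core starts and 11.7% of all starts. Among the L forms, 2 of 6 genes with a window had a run, RPL22L1 and RPL36AL, both visible above. RPL26L1 and RPL7L1 lacked a run of that length where RPL26 has one, and RPS27L lacked one where RPS27 has one. A match here is a description of the letters and does not show that a tract is used.

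**Figure D1:**
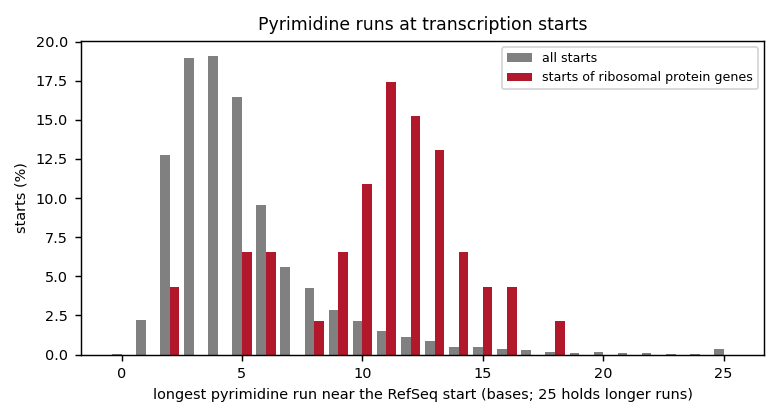
Length in bases of the longest pyrimidine run at each RefSeq start (horizontal axis) against the share of starts in percent (vertical axis), for all starts in grey and for the starts of the core ribosomal protein genes in red. The core starts centre on a median run of 11 bases and all starts on 4.

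The arrays were first checked against their labels and against each other. In the control arrays the erythroid markers had a median log2 intensity of 13.14 in K562 and of 5.45 to 5.83 in the other lines, while the promyelocytic markers stood at 14.97 in HL60, 15.05 in SKM1, 11.22 in MDSL and 6.08 in K562. The promyelocytic list thus set K562 apart but did not tell HL60 from SKM1. Of the erythroid genes GATA1 was high in the MDSL control too, at 10.99, against 13.14 in K562. The 7 myeloid genes listed as markers of MDSL and SKM1 had a control median of 5.88 for K562. For HL60 that median was 11.02, against 11.38 for SKM1 and 12.54 for MDSL, so it mainly set K562 apart. Its genes differed: CD34, a stem and progenitor marker, was at 14.68 in MDSL and at most 5.58 in the others. KIT was at 12.55 in SKM1 and 12.54 in MDSL, with 4.27 and 5.56 in HL60 and K562. MPO was lower in MDSL, at 8.62, than in HL60, at 17.01, or SKM1, at 17.08. Markers of T cells, B cells and fibroblasts had low list medians in every control, between 4.12 and 7.81, but single genes were higher. The B cell markers CD79A and CD79B were at 11.49 and 9.13 in MDSL, and the T cell marker CD3D was at 8.89 in K562. COL1A2, a fibroblast marker, was at 8.86 to 9.34 in the controls. The keratins KRT8, KRT18 and KRT19 were highest in K562, at 15.37, 14.11 and 12.11. KRT8 was also above background in the other controls, at 9.17 to 10.24. EPCAM was at 13.31 in K562 and 12.46 in SKM1. The HL60 array treated with OR21 stood apart in the mean of its hybridisation spikes, which was 11.71 against 10.85 to 11.10 on the other arrays. The mean of its poly-A spikes was also the highest, at 8.06 against 6.86 to 7.51. Its median over the ERCC control probes was 4.72, within the 4.66 to 5.01 of the other arrays. Most means and counts over the 4 lines are therefore also given without HL60, and the part of that array in the values of HL60 itself was not tested. In the median of the background probes the MDSL control stood apart, at 4.98 against 5.41 to 5.43 on the other 9 arrays, and its part in the MDSL differences was not tested.

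Core ribosomal proteins were bright on every array and varied little between the untreated lines. Their log2 intensities ran from 12.36 to 17.77, well above the background probes of every array. In the controls the core median lay between 16.27 and 16.52, above the 99th percentile of all genes, which was 14.90 to 15.19. Whether signal is compressed near the top of the scale, which would make spreads and differences smaller, was not tested. The SD over the 4 controls ranged from 0.03 to 0.65 among core genes with a median of 0.19, against a median of 0.44 over all genes. In 39 of the 45 core genes, and 44 of the 59 members, the controls lay within 1 log2 unit of each other, where 50.8% of all genes did. Many ribosomal protein genes also have near-identical processed pseudogenes, and the probe sets may share their signal.

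A few members did differ between the untreated lines. RPL26L1, the near copy of RPL26, was at 11.89, 11.52 and 11.13 in HL60, K562 and SKM1, and at 9.22 in MDSL. RPL7L1, related to the large-subunit protein RPL7 and known from pre-ribosome assembly, was likewise lowest in MDSL at 11.51, against 12.48 in SKM1, 13.08 in HL60 and 13.43 in K562. RPL22L1, the paralogue of the RNA-binding protein RPL22, was at 10.39 in MDSL and between 11.73 and 12.16 in the other 3 lines. MDSL was thus the lowest line for all 3 of these L forms. Among core genes the lowest level of RPS26, a Diamond-Blackfan gene at the message exit of the small subunit, was 14.53 in SKM1, with 15.71 to 15.97 elsewhere. RPLP1, an acidic protein of the stalk that recruits elongation factors, was highest in MDSL at 17.08, the other controls lying between 16.23 and 16.31. In 21 of the 45 core genes the MDSL control was the highest of the 4, where 29% of all genes had their highest control there. With 1 array per line these orders have no replicate behind them.

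Of the tissue-restricted L forms RPL10L was near background, RPL39L was near or under it in MDSL and untreated HL60, and RPL3L was not. RPL39L, a testis and tumour-associated copy of RPL39, was between 4.03 and 7.27 over the 10 arrays and at or under the background probes on 2 of them. RPL10L, which replaces RPL10 in male germ cells, lay between 5.19 and 6.01 and was at or under background on 3 arrays. RPL3L, the form of striated muscle, lay between 9.27 and 9.73. Differences of RPL10L, and of RPL39L in MDSL and HL60, are therefore close to the floor of the assay. No member was at or under background on all 10 arrays, where 19.3% of all genes were.

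The effect of OR21 over the 4 lines was tested with limma, with the line as a block. No ribosomal protein gene passed an adjusted p of 0.05: 0 of 59 members were called, against 0.0396% of all genes, or 7. At an unadjusted p under 0.05, 4 members were lower with OR21, among a background of 10.1%, and 0 were higher, among 8.98%. None of the 4 was a core gene. Over the core set the mean difference had a median of -0.08 on the log2 scale, against -0.02 over all genes, and was negative for 37 of 45 core genes, where 52.4% of all genes were lower. The 477 other genes whose mean level was at or above that of the dimmest core gene, called the other bright genes below, lay lower: their median was -0.18 and 63.1% were negative. They were still dimmer than the core set, with a median level of 14.49 against 16.27 in the HL60 control. Without HL60 the medians were -0.09 for the core set, -0.02 for all genes and -0.08 for the other bright genes. Over the 59 members the median was -0.08, and 0.01 without MDSL, so its direction rests on that line. Adjusted p-values of core genes in the limma fit ran from 0.310 to 0.998. These libraries are bulk RNA, in which fewer cells of a type and less RNA per cell cannot be told apart, and the arrays carry no measure of total RNA.

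**Figure D2:**
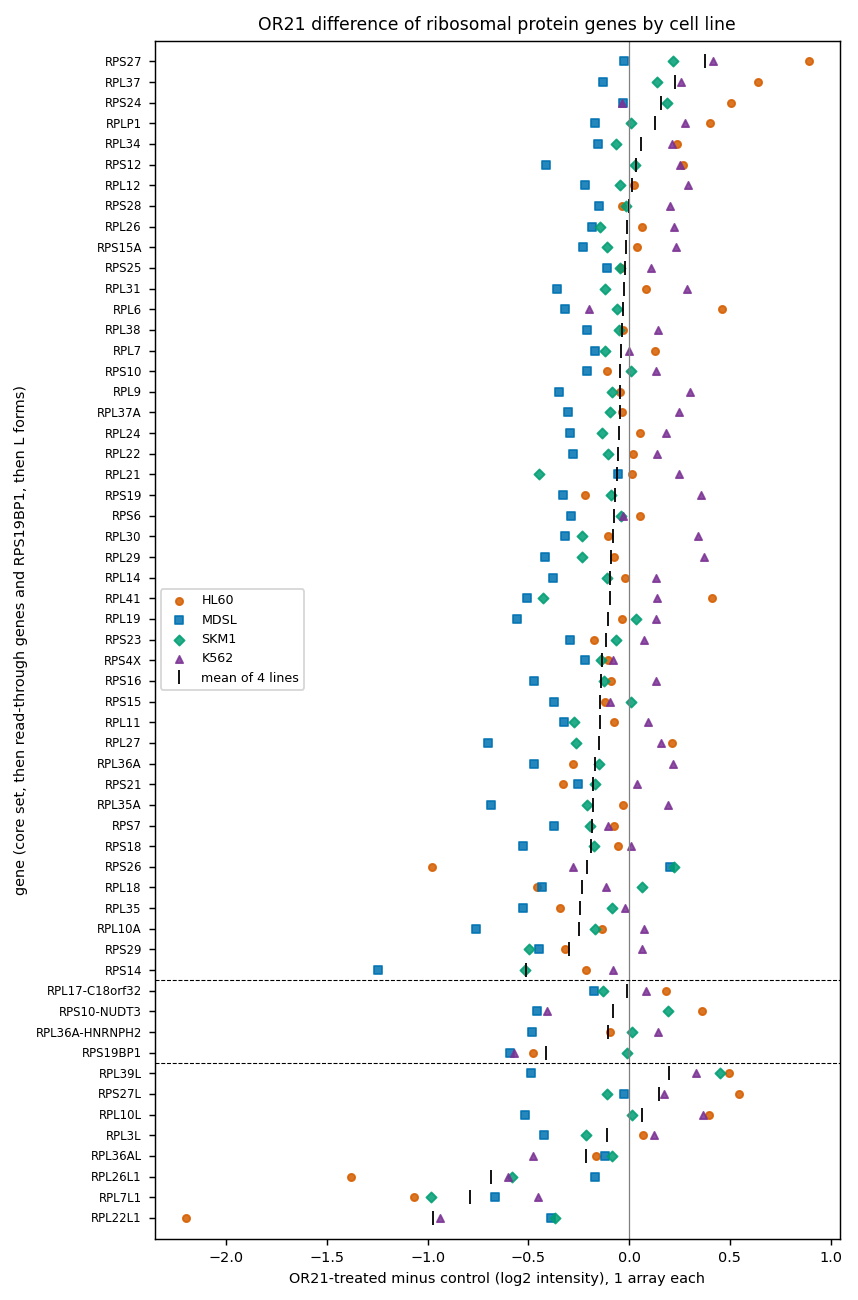
Difference between the OR21 and the control array (horizontal axis, log2 intensity) for each ribosomal protein gene with values (vertical axis), 1 symbol for each cell line and a black bar for the mean of 4 lines. Core genes lie near 0 with MDSL mostly leftmost and K562 mostly rightmost, and RPL22L1, RPL7L1 and RPL26L1 at the bottom lie left of 0 in all 4 lines.

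The members farthest below their controls were 3 L forms. RPL22L1 was at 11.77 in untreated and 9.56 in treated HL60, at 10.39 and 10.00 in MDSL, at 11.73 and 11.36 in SKM1 and at 12.16 and 11.22 in K562. The treated array was the lower in every line, and the HL60 pair differed more than any other. Its mean difference was -0.97 ± 0.86 (SD, n = 4 lines; limma adjusted p = 0.201), and -0.57 ± 0.32 over the 3 lines without HL60 (adjusted p = 0.344).

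RPL7L1 stood at 13.08 and 12.02 in control and treated HL60, 11.51 and 10.85 in MDSL, 12.48 and 11.50 in SKM1 and 13.43 and 12.98 in K562. It was lower with OR21 in all 4 lines by differences between -0.45 and -1.07, the most even of the 3. The mean difference of RPL7L1 was -0.79 ± 0.29 (SD, n = 4 lines; limma adjusted p = 0.127, the smallest of any member), and -0.70 ± 0.27 without HL60 (adjusted p = 0.264).

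RPL26L1 stood at 11.89 and 10.51 in control and treated HL60, 9.22 and 9.05 in MDSL, 11.13 and 10.55 in SKM1 and 11.52 and 10.91 in K562. Again the treated array was the lower in each line, by least in MDSL, where the gene was dimmest. Its mean difference was -0.68 ± 0.50 (SD, n = 4 lines; limma adjusted p = 0.202), and -0.45 ± 0.24 without HL60 (adjusted p = 0.406). None of these 3 differences passed the threshold.

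**Figure D3:**
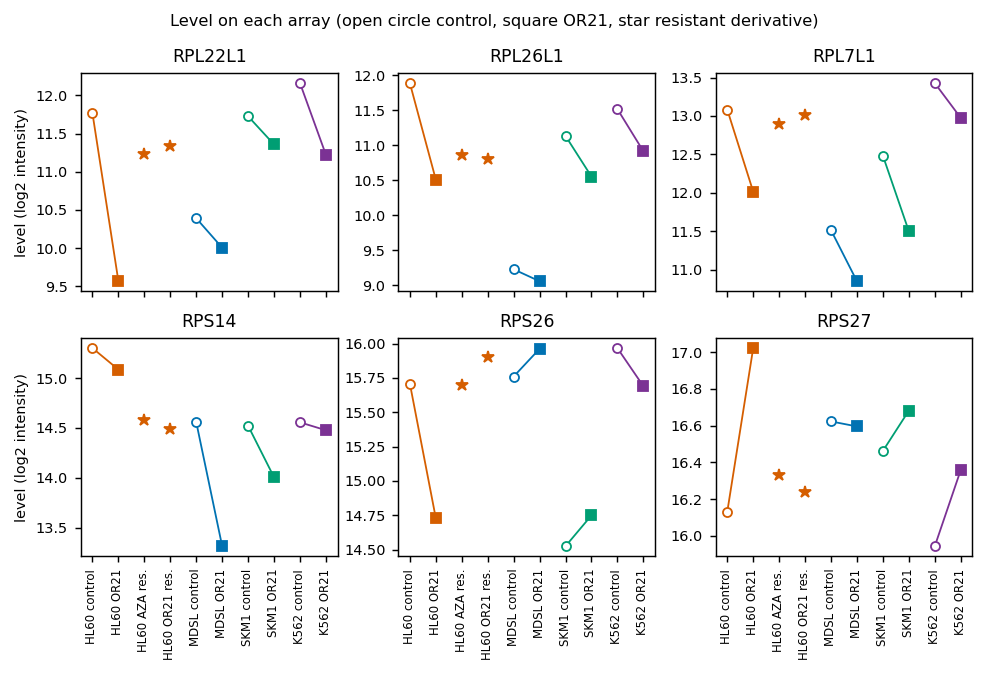
Level in log2 intensity (vertical axis, its range set for each gene) on each of the 10 arrays (horizontal axis) for 3 L forms above and 3 small-subunit genes below, with control and OR21 arrays of a line joined. The 3 L forms are lower with OR21 in every line, whereas RPS26 and RPS27 go in different directions in different lines and RPS14 is lowest in treated MDSL.

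Each of these L forms was set against its core partner within the same arrays, by the difference of the differences. RPL22 itself differed by 0.02, -0.28, -0.11 and 0.14 in HL60, MDSL, SKM1 and K562. RPL22L1 was below RPL22 in its OR21 difference in all 4 lines, by a mean of -0.92 ± 0.97 (SD, n = 4 lines; exact two-sided sign-flip permutation p = 0.125). RPL7L1 was below RPL7 in all 4 lines too, by -0.75 ± 0.35 (SD, n = 4 lines; exact permutation p = 0.125). Without HL60 the values were -0.48 ± 0.52 for RPL22L1 and -0.60 ± 0.23 for RPL7L1, still below their partners in the other 3 lines. With 4 lines 0.125 is the smallest p this test can give, and adjusted over the 5 pairs it was 0.3125 for both. RPL26L1 was below RPL26 by -0.67 ± 0.62 with MDSL at 0.01 (exact permutation p = 0.25, n = 4), and by -0.42 ± 0.42 without HL60. For RPS27L against RPS27 the value was -0.23 ± 0.16 (exact permutation p = 0.25, n = 4), and for RPL36AL against RPL36A it was -0.04 ± 0.46 (exact permutation p = 1, n = 4). Those 2 were -0.19 ± 0.17 and -0.09 ± 0.54 without HL60. The L forms therefore did not share 1 pattern: 4 of the 8 were lower in all 4 lines, where 15.3% of all genes were, and 0 were higher in all 4, where 12.2% were. The count was also 4 of 8 in the 3 lines without HL60, where 20% of all genes were lower.

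RPS27L, which is a target of p53, was at 11.97 and 12.52 in control and treated HL60 and at 12.28 and 12.46 in K562. It differed by -0.03 in MDSL and -0.11 in SKM1, so the sign followed the line. RPL36AL differed little in HL60, MDSL and SKM1, by -0.17, -0.12 and -0.09, and by -0.48 in K562. RPL39L differed by 0.50, -0.49, 0.45 and 0.33 in HL60, MDSL, SKM1 and K562. Its level was under background on both MDSL arrays, near it in the HL60 control, and between 6.75 and 7.27 in SKM1 and K562.

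Within the core set the lowest mean difference belonged to RPS14, a protein of the small subunit's platform. Its log2 level was 15.30 in untreated and 15.08 in treated HL60, 14.56 and 13.31 in MDSL, 14.52 and 14.00 in SKM1, and 14.56 and 14.48 in K562. The MDSL pair differed by -1.24, and the treated MDSL array was the lowest of all 10. Over the 4 lines the mean was -0.51 ± 0.52 (SD, n = 4 lines; limma adjusted p = 0.310), and -0.61 ± 0.59 without HL60 (adjusted p = 0.395). Only RPS14, RPL35, RPS7 and RPS4X of the 45 core genes were lower in all 4 lines, and 0 were higher in all 4. No member was 2-fold lower in all 4 lines, where 0.226% of all genes were, or 2-fold higher, where 0.424% were. Over the 59 members 10 were lower in all 4 lines, where 15.3% of all genes were, and 0 were higher, where 12.2% were. RPL35, at the exit tunnel of the large subunit, differed by -0.34, -0.53, -0.09 and -0.02 in HL60, MDSL, SKM1 and K562, a mean of -0.24 ± 0.23, or -0.21 ± 0.27 without HL60. RPS4X, the X-linked form of a gene with copies on the Y chromosome, had the smallest SD of any core gene, with a mean of -0.14 ± 0.06, or -0.15 ± 0.07 without HL60. Without HL60, 13 of the 59 members were lower in the other 3 lines, where 20% of all genes were, and 0 were higher, where 17.2% were. Of the core genes 38 of 45 had a negative mean without HL60, where 51.9% of all genes had.

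Each line had its own pattern of ribosomal protein differences, which with 1 array a condition can be described but not tested. In MDSL, at 100 nM, 44 of 45 core genes were lower with OR21, where 53.3% of all genes were lower. The core median was -0.32, against -0.04 over all genes and -0.07 over the 477 other bright genes. The lowest were RPS14 at -1.24, RPL10A at -0.76, RPL27 at -0.70 and RPL35A at -0.68. RPL10A is the stalk protein beside the exit site, and RPL35A is another Diamond-Blackfan gene. Few differences were large: 6 of 59 members were at least 1.5-fold lower, where 14.9% of all genes were. Quantile normalization made this 12 of 59, or 20.3%, against 15.4% of all genes, so whether the share is below or above that of all genes turns with the scaling. None was at least 1.5-fold higher, where 14.4% were. Of the core genes only RPS26 was higher, by 0.20. RPS14 alone was at least 2-fold lower, where 4.88% of all genes were, and no member was 2-fold higher, where 6.62% were. On 21 of the 45 core genes the treated MDSL array had the lowest level of the 8 control and treated arrays, where 16.3% of all genes did.

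In SKM1, also at 100 nM, 35 of 45 core genes were lower, against 51.9% of all genes, with a core median of -0.11. The other bright genes had nearly the same median, -0.10, and 55.8% of them were lower. Most of these differences were small. RPS29, a zinc-binding protein of the small subunit, differed by -0.50, RPS14 by -0.52, RPL21 by -0.45 and RPL41, the smallest ribosomal protein, by -0.43. RPS26 and RPS27 were both higher by 0.22. Only RPL7L1 was at least 1.5-fold lower in SKM1, where 14.2% of all genes were, and 0 members were that much higher, where 15% were. At 2-fold there was no member in either direction, where 4.47% of all genes were lower and 7.1% higher.

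In K562, at 500 nM, the core set lay the other way: 11 of 45 core genes were lower, where 50% of all genes were. The core median was 0.14, against -0.00 over all genes and -0.13 over the 477 other bright genes. The large subunit had a median of 0.19 and the small subunit 0.06. The highest were RPS27 at 0.41, RPL29 at 0.37, RPS19 at 0.35 and RPL30 at 0.34. RPS19 is the gene most often mutated in Diamond-Blackfan anaemia. None of the 59 members was at least 1.5-fold higher in K562, where 13.7% of all genes were, and only RPL22L1 and RPL26L1 were at least 1.5-fold lower, where 12.6% were. No member differed 2-fold, where 3.86% of all genes were lower and 5.05% higher. Centring each array on its median moved the K562 core median to -0.01 and made 24 of 45 core genes lower, so its sign turns with the scaling. It stayed positive after quantile normalization, at 0.18, and after scaling to the hybridisation spikes, at 0.24. The core median lay 0.14 above that of all genes as deposited. Centring shifts every gene of an array alike, so it cannot change that gap. Quantile normalization can, and the gap was then 0.21.

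HL60, at 500 nM, had the widest range of core differences and no common direction: 27 of 45 were lower, where 53.2% of all genes were, and the core median was -0.03. RPS27, a zinc-finger protein of the small subunit, was at 16.13 in the control and 17.02 in the treated array, a difference of 0.89. RPL37 differed by 0.64 and RPS24 by 0.50. RPS26 was at 15.71 in the control and 14.73 in the treated array, a difference of -0.98. RPS27 and RPL37 were the 2 members at least 1.5-fold higher, where 18.3% of all genes were. RPL22L1, RPL26L1, RPL7L1 and RPS26 were the 4 at least 1.5-fold lower, where 21.3% were. The 3 L forms among them were at least 2-fold lower, where 11.1% of all genes were, and no member was 2-fold higher, where 10.2% were. The HL60 values rest on the array whose spikes stood apart: scaled to the spikes, RPS27 differed by 0.13, RPL37 by -0.12 and RPS26 by -1.74. In the same scaling 58 of 59 members were lower in HL60, and the HL60 median of all genes was -0.81. The 477 other bright genes had a median of -0.29 in HL60 as deposited.

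**Figure D4:**
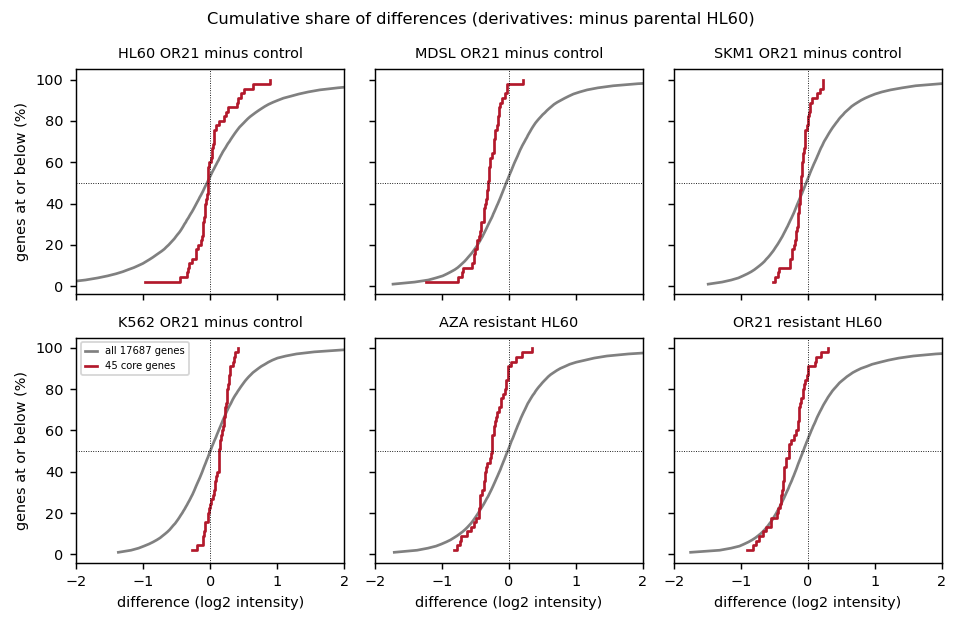
Cumulative share of genes in percent (vertical axis) at or below a given log2 difference (horizontal axis) for all genes in grey and the core ribosomal protein genes in red, for OR21 against control in 4 lines and for the resistant derivatives against parental HL60. The red curves are steep and lie left of the grey ones at the halfway line in MDSL, SKM1 and both derivatives and right of it in K562.

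RPS26 and RPS27 show how single core genes departed from the rest. For RPS26 the differences were -0.98, 0.20, 0.22 and -0.28 in HL60, MDSL, SKM1 and K562, lower in both lines at 500 nM and higher in both at 100 nM. RPS27 differed by 0.89, -0.03, 0.22 and 0.41 in the same order, and its mean of 0.37 ± 0.39 was the highest of the members given (SD, n = 4 lines; limma adjusted p = 0.388). Without HL60 the RPS27 mean was 0.20 ± 0.22 (adjusted p = 0.702). RPLP1 differed by 0.40 in HL60 and 0.28 in K562, and by -0.17 in MDSL and 0.01 in SKM1. RPS6, the small-subunit protein phosphorylated by the S6 kinases, differed by at most 0.29 in size in any line. RPL11, which binds MDM2 when free of the ribosome, differed by -0.07, -0.33, -0.27 and 0.09. The assembly-related RPS19BP1 differed by -0.48, -0.59, -0.01 and -0.57, a mean of -0.41 ± 0.27 (SD, n = 4 lines; limma adjusted p = 0.298), or -0.39 ± 0.33 without HL60 (adjusted p = 0.486).

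The lines at 500 nM and at 100 nM were compared in one limma fit with an interaction term. No gene was called, of members or of all genes (0%), and at an unadjusted p under 0.05 there were 0 members, where 2.75% of all genes were higher and 2.73% lower at 500 nM. The median interaction over members was 0.30, in the direction of higher values at 500 nM. In 32 of 45 core genes the differences of HL60 and K562 both lay above those of MDSL and SKM1, where 17.7% of all genes had that order and 13.2% of the 477 other bright genes. Without HL60, K562 lay above both MDSL and SKM1 in 40 of 45 core genes, where 37.7% of all genes had that order. The opposite order was found in 4 of 59 members, where 18.7% of all genes had it, and RPS26 was the only core gene among them. The adjusted p of core genes in the interaction ran from 0.882 to 0.986. Leaving out 1 line at a time gave a median interaction between 0.17 and 0.38, and it was 0.35 without HL60. It was -0.09 when every array was scaled to its spikes, which lowers all genes on the treated HL60 array alike. In 18 of 45 core genes HL60, MDSL and SKM1 were all lower and K562 was higher, a pattern 8.82% of all genes had. Leaving HL60 aside, MDSL and SKM1 were lower and K562 higher in 28 of 45 core genes, where 14.4% of all genes were. Signs were opposite at the doses, higher in both lines at 500 nM and lower in both at 100 nM, in 13 of 59 members, where 5.56% of all genes had that pattern. The reverse held for 1 member, RPS26, where 4.7% of all genes had it.

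Both resistant HL60 derivatives had lower ribosomal protein levels than the 1 parental control array they share. In the AZA resistant line 41 of 45 core genes were lower, where 51.5% of all genes were, and the core median was -0.26 against -0.02 over all genes. In the OR21 resistant line 41 of 45 were lower, where 55.7% of all genes were, and the core median was -0.28 against -0.07. After quantile normalization the core median of the OR21 resistant line was -0.15 against -0.09 over all genes, with 30 of 45 core genes lower, where 57.2% of all genes were. The gap to all genes was thus -0.06 in place of -0.21. In the AZA resistant line it was -0.15 in place of -0.24. All 26 core genes of the large subunit were lower in each derivative. The other 477 bright genes had medians of -0.05 and -0.06. In 40 of 45 core genes both derivatives were lower, where 42.2% of all genes were, but they share that control and the count adds nothing to the separate ones. How far the 1 control array sets these values was not tested.

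The largest differences were in a few named genes. RPS21 was at 16.64 in the parental line, 15.82 in the AZA resistant and 15.87 in the OR21 resistant line. RPL29, which also binds heparin, was at 14.00, 13.29 and 13.10 in the same order. RPS14 was at 15.30, 14.57 and 14.49, and the parental control was above the other 3 control lines, which lay between 14.52 and 14.56. RPL27 differed by -0.78 and -0.73, RPL26 by -0.63 and -0.55 and RPL7 by -0.57 and -0.62. RPL26L1 was lowest among the L forms, at -1.02 and -1.08, and RPL36AL differed by -0.52 and -0.77. RPL22L1 differed by -0.53 and -0.43, less than in HL60 under OR21, and RPL7L1 by -0.19 and -0.07.

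Some members went the other way in the derivatives. RPS25, a protein of the small subunit's head that several viral messages need, was at 16.05 in the parental control and 16.40 and 16.34 in the derivatives. The other controls were at 16.48 to 16.64, so the parental array was the lowest of the 4 for this gene. RPS27 differed by 0.20 and 0.11, and RPS26 by -0.01 and 0.19. RPL39L differed by 0.90 and 0.98, from a parental level of 5.49 near background. By the 1.5-fold measure 6 of 59 members were lower in the AZA resistant line, where 14.4% of all genes were, and 9 in the OR21 resistant line, where 14.3% were. After median centring these counts were 16 and 13 of 59, where 22.1% and 21.9% of all genes were, so the AZA resistant share moved from below to above that of all genes. RPL39L was the only member at least 1.5-fold higher in either, where 14% of all genes were in each. RPL26L1 was the only one at least 2-fold lower, where 5.11% and 4.27% of all genes were, and no member was 2-fold higher, where 7.04% and 7.69% were.

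**Figure D5:**
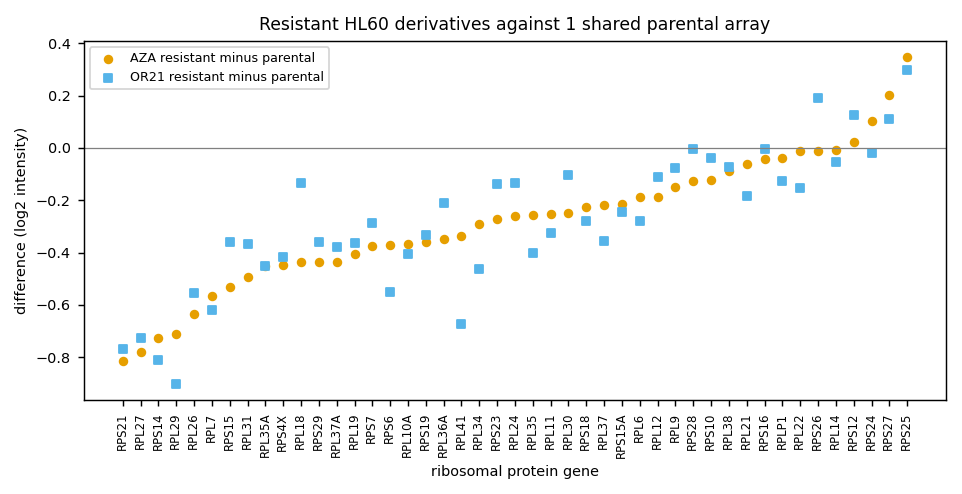
Difference in log2 intensity from the shared parental HL60 array (vertical axis) for each core gene (horizontal axis, ordered by the AZA resistant value), with circles for the AZA resistant and squares for the OR21 resistant derivative, 1 array each. Most symbols lie below 0, with RPS21, RPL27, RPS14 and RPL29 lowest and RPS25 highest.

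The derivatives were also set directly against each other. The OR21 resistant minus AZA resistant difference had a median of 0.00 over members and a median size of 0.09, against 0.22 over all genes and 0.11 over the other bright genes. It was negative for 29 of 59 members, where 50.4% of all genes were lower. At 1.5-fold, 1 member was lower, where 6.09% of all genes were, and 0 were higher, where 4.86% were. No member differed 2-fold, where 0.888% of all genes were lower and 0.678% higher. The widest core differences were those of RPL41 at -0.34 and RPL18 at 0.30.

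The other genes of the translation machinery were taken from fixed lists, and no gene on any list passed the limma threshold. FAU, the source of a small-subunit protein that the naming rule misses, differed by -0.45, -0.81, -0.03 and -0.05 in HL60, MDSL, SKM1 and K562, and by -0.66 in each derivative. Its mean was -0.34 over the 4 lines and -0.30 without HL60. Of 32 initiation factors, 29 had a negative mean, where 52.4% of all genes and 63.1% of the other bright genes had. Of the same 32, 14 were lower in all 4 lines, against 15.3% and 30.6%, and 11 had an unadjusted p under 0.05 while lower, against 10.1% and 20.1%. Their median of the mean differences was -0.29, and -0.26 without HL60, where 7 had an unadjusted p under 0.05 while lower, against 7.08% of all genes. Leaving HL60 out, 29 had a negative mean, where 51.9% of all genes and 59.1% of the other bright genes had. In every line left 15 were lower, against 20% and 33.3%. EIF2B5, a subunit of the exchange factor for eIF2, differed by -1.35 ± 0.44 (SD, n = 4 lines; limma adjusted p = 0.102), and EIF3B, a scaffold subunit of eIF3, by -1.05 ± 0.48 (adjusted p = 0.122). Without HL60 they differed by -1.17 ± 0.29 (adjusted p = 0.187) and -0.83 ± 0.20 (adjusted p = 0.223). Initiation factors were thus farther below their controls than the core set, whose median was -0.08, a difference that was not tested.

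The list of ribosomal protein chaperones and importers, which also holds subunit assembly factors such as NOB1, LTV1 and the RIOK kinases, had a lower median still. Of 23 measured, 21 had a negative mean, where 52.4% of all genes had, 13 were lower in all 4 lines, where 15.3% were, and 12 had an unadjusted p under 0.05 while lower, where 10.1% had. The list median was -0.53, and -0.51 without HL60. Leaving HL60 out, 20 had a negative mean, 13 were lower in every line left and 12 had an unadjusted limma p under 0.05 while lower. The shares of all genes were then 51.9%, 20% and 7.08%. Within the list NOB1 and LTV1 had means of -1.32 ± 1.07 and -1.22 ± 1.06 (SD, n = 4 lines), or -0.79 ± 0.14 and -0.72 ± 0.48 without HL60. The importers IPO5, IPO9 and KPNB1 had means over the 4 lines of -1.19 ± 0.88, -0.31 ± 0.23 and -0.21 ± 0.24. Their differences in HL60 were -2.11, -0.59 and -0.25. The median therefore does not describe chaperones or importers alone. GRWD1, which loads the ribosomal protein uL3, differed by -1.75 ± 0.81 (SD, n = 4 lines; limma adjusted p = 0.115), and -1.37 ± 0.37 without HL60 (adjusted p = 0.181). Among 10 elongation and release factors the median was -0.08, close to the core set, and ABCE1, which splits ribosomes after termination, differed by -1.10 ± 1.06 (adjusted p = 0.214), or -0.60 ± 0.45 without HL60 (adjusted p = 0.357). The median of the elongation and release factors was -0.05 without HL60. Of 8 other genes with TOP messages 5 had a negative mean, where 52.4% of all genes had, also 5 without HL60. NPM1, the nucleolar chaperone, differed by -0.83 ± 0.16 (adjusted p = 0.118), whereas EEF1A1, the main elongation factor, differed by 0.11 ± 0.14. Without HL60 they differed by -0.82 ± 0.20 (adjusted p = 0.223) and 0.05 ± 0.10. The largest mean difference of these TOP genes was upward, in VIM, at 1.16 ± 1.18 (limma adjusted p = 0.225). VIM differed by 2.61, 0.47, 1.61 and -0.03 in HL60, MDSL, SKM1 and K562, with a mean of 0.68 ± 0.84 without HL60 (limma adjusted p = 0.438).

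The regulators of TOP and cap-dependent translation showed no common direction, with a median of 0.05 over 16 genes, or 0.14 without HL60, and 6 had a negative mean either way. The list joins activators and inhibitors, so its median does not say which way the pathway moved. EIF4EBP1, which blocks the cap-binding protein when mTOR is off, differed by -2.77, -2.01, -0.96 and -0.18 in HL60, MDSL, SKM1 and K562 (mean -1.48 ± 1.14, limma adjusted p = 0.156, n = 4 lines), and by a mean of -1.05 ± 0.92 without HL60 (adjusted p = 0.304). RICTOR, a subunit of the second mTOR complex, differed by 0.77 ± 0.25 (adjusted p = 0.127), or 0.77 ± 0.30 without HL60 (adjusted p = 0.256). LARP1, which binds TOP messages, differed by -0.42 ± 0.36, or -0.24 ± 0.10 without HL60. TSC1 and RPTOR, on the same list, differed by 0.74 ± 0.40 (limma adjusted p = 0.156) and -0.70 ± 0.82 (limma adjusted p = 0.306). Without HL60 these were 0.79 ± 0.47 and -0.50 ± 0.88, and RPTOR was at or under background on 2 arrays.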

How the data were processed

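RNA of 10 cell-line samples was measured on arrays, and the deposited table gives linear intensity values for 24351 probe sets. How the authors corrected and normalized them is not given in the sources used here. Of these probe sets 17709 had 1 symbol in the platform annotation, 0 had several and 6642 were not listed in it. For the 20 genes with several probe sets the brightest was kept, which left 17687 genes. Values were taken to log2 without a pseudocount. limma 3.58.1 (R 4.3.3) was run on the 8 control and OR21 arrays, with cell line as a block, an interaction for dose and Benjamini-Hochberg adjustment over all genes at 0.05, after it was tested on simulated data. Nothing in the labels says whether arrays came from separate cultures, and p-values measure the spread between lines. The same line in control and treated samples makes the pairs. Single-line and derivative comparisons have 1 array a side, no test, and counts at 1.5-fold and 2-fold. Background is the median of the background probes of each array. The members and gene lists were chosen with earlier results of these data known. Members were named by rank if they had the largest mean differences of 1 sign in all lines or the highest or lowest values per comparison. The 6 with the largest SD over controls were named too. The paralogue pairs and a fixed set, with RPLP1, RPS6, RPS14, RPS19, RPL11 and RPL35A, were named whatever their values. From each gene list the genes of largest absolute mean difference were named. RPL21, RPL41, RPL18, RPS7, LARP1, EEF1A1, IPO5, IPO9 and KPNB1 fall outside these rules and were chosen after their values were seen. Values without HL60 and the comparison with other bright genes were added after seeing the data. The Y-linked copies fall under the rule but are not reported. RefSeq windows were searched with Python 3.11.15.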

Additional observations from a re-analysis of the deposited data

Results flagged for a closer look

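Each of the 35 named members was examined for 1 line lying far from the other 3, in the control levels and in the OR21 differences, which makes 70 groups of 4, and 4 stood out. Chance flags about 1 in 20 such groups, and 4 of 70 is near that rate. Some of the 35 were also named for these same values, which makes a flag likelier. The 4 are therefore described only. RPS14 was at 15.30 in the HL60 control and at 14.52 to 14.56 in the other controls. RPLP1 was at 17.08 in the MDSL control and at 16.23 to 16.31 in the others. RPL3L was at 9.73 in the MDSL control and at 9.50 to 9.51 in the others. The OR21 difference of RPL39L was -0.49 in MDSL and 0.33 to 0.50 in the other lines. Both MDSL levels of RPL39L, 4.52 in the control and 4.03 with OR21, were under the background of their arrays, at 4.98 and 5.42.

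Opposite signs at the 2 doses, with both lines of a dose on the same side, were found for 7 named members of the 35. Higher at 500 nM and lower at 100 nM was the pattern of 5.56% of all genes, and the reverse that of 4.7%. RPS26 was lower in both lines at 500 nM and higher in both at 100 nM, an interaction of -0.84 (limma adjusted p = 0.882). The other 6 were higher at 500 nM and lower at 100 nM: RPL27 by 0.67, RPS27L by 0.43, RPL3L by 0.41, RPL26 by 0.31, RPL17-C18orf32 by 0.28 and RPL22 by 0.27. None passed the limma interaction test, in which the adjusted p ran from 0.882 for RPL27 to 0.926 for RPL22.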

How the results depend on the processing

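No ribosomal protein gene was called in the test over 4 lines under any alternative run, and the medians of the members in MDSL, SKM1 and the derivatives kept their sign in each. The count of all genes called was less stable: 7 with the cell line as a block, and 1 without that block. It ranged from 0 to 5 when 1 line was left out, was 1 without HL60, 0 without SKM1 and 2 without K562, and was 3 with a floor at background or a pseudocount of 16. Scaling to the hybridisation spikes gave 240 genes over 4 lines and 18 in the dose interaction, and moved the median over members to -0.798 in HL60 and to -0.0937 in the interaction. In that scaling RPL37 in HL60 was -0.12. Apart from the lines left out, the cause was not tested. Centring the arrays on their medians gave the difference of all genes a median of -0.22 in HL60 (-0.05 as deposited), -0.17 in SKM1 (-0.02), -0.14 in K562 (-0.00), -0.18 in AZA resistant cells (-0.02) and -0.22 in OR21 resistant ones (-0.07). After it 45 of 59 members were lower in HL60, where 63.8% of all genes were, 54 in SKM1, where 63.2% were, and 34 in K562, where 61.3% were (18 and 50% as deposited), and 28 were lower in all 4 lines, where 24.2% of all genes were. With 1 array a condition, precision is limited by the number of arrays.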
